A study of Mus musculus with 11 samples.

Results

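Alveolar fibroblast identity is represented here by 9 genes that were taken by symbol from the read count table: the transcription factors Tcf21 and Meox2, the adhesion and matrix genes Itga8, Npnt, Cdh11 and Gpc3, the enzymes Inmt and Ces1d, and Limch1. All 9 were among the 24411 genes of the table, and all 9 were among the 16011 genes kept by a filter on low counts. The least abundant, Tcf21, had 36 to 246 reads per library, so no member was kept through a single group in which it was high. Bulk RNA was read from lung mesenchymal cells of C57BL6 mice, the sorted cells being those without EpCAM, CD45 and CD31, which mark epithelial cells, leukocytes and endothelial cells. Lungs were taken 7 days after pneumonectomy (PNX, removal of lung tissue, 3 libraries), 7 days after sham surgery (3 libraries), 14 days after PNX (3 libraries) and 14 days after sham surgery (2 libraries). Age, sex and whether each library came from its own mouse are not given in the sources used here, so a p-value here weighs a difference against the spread of libraries, part of which may be technical.

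Alveolar fibroblasts lie in the alveolar wall beside epithelial cells and capillaries. They lay down basement membrane and interstitial matrix and supply growth factors to alveolar type 2 cells. Tcf21, a basic helix-loop-helix factor, marks the lineage in the mouse lung from development onward. Nephronectin, the product of Npnt, is a basement membrane protein and a ligand of the integrin whose alpha chain Itga8 encodes, so that pair codes for a matrix ligand and its receptor. PNX is a widely used model in which the remaining lung grows to restore gas exchange surface.

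All 9 members are protein-coding. In mm10 with GENCODE M21 they lie at chr10:22817281-22820174 on the minus strand (Tcf21), chr12:37108540-37179534 on the plus strand (Meox2), chr2:12106632-12301922 on the minus strand (Itga8), chr3:132881745-132950291 on the minus strand (Npnt) and chr8:102632095-102785642 on the minus strand (Cdh11). The others lie at chrX:52272426-52613950 on the minus strand (Gpc3), chr6:55170626-55175043 on the minus strand (Inmt), chr8:93166068-93197838 on the minus strand (Ces1d) and chr5:66745827-67057158 on the plus strand (Limch1). Exons of Itga8 share 372 bases with those of the antisense gene E030013I19Rik, which is also in the table. The strand setting of the counting is not given in the sources used here, so reads of that stretch cannot be told apart between the 2 genes.

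Upstream sequences are shown for 4 members on which the results below turn: Tcf21, the lineage factor; Itga8, the gene furthest below sham at day 7; Inmt, the most abundant member per exon length; and Gpc3, which stood close to sham at day 14. RefSeq promoter windows of GRCm38.p6, from 250 bases before to 50 bases after a start site, matched 7 of the 9 members with 10 windows. For comparison, 3 motifs were searched on both strands: the E-box CAGCTG, which basic helix-loop-helix factors can bind, the TATA box TATAAA and the GC box GGGCGG. Capitals mark their matches, none of which overlap in these 4 windows. The 250 bases before each start site, written 5′ to 3′ on the minus strand that carries each gene, are at chr10:22820144-22820393 (Tcf21), chr2:12301945-12302194 (Itga8), chr6:55174991-55175240 (Inmt) and chrX:52613975-52614224 (Gpc3).
Tcf21: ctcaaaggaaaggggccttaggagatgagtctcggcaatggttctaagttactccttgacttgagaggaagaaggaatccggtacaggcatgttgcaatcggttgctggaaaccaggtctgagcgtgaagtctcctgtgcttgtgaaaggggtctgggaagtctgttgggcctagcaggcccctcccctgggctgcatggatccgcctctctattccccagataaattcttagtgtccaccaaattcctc
Itga8: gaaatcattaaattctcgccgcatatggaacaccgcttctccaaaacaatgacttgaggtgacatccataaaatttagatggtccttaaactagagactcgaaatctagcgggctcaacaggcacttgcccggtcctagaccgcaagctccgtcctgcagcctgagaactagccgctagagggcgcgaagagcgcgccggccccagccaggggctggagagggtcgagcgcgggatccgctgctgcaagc
Inmt: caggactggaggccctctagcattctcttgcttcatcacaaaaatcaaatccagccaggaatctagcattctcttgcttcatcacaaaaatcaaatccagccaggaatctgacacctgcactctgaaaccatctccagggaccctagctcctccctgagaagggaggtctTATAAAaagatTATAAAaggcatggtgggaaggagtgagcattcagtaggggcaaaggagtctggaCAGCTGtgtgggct
Gpc3: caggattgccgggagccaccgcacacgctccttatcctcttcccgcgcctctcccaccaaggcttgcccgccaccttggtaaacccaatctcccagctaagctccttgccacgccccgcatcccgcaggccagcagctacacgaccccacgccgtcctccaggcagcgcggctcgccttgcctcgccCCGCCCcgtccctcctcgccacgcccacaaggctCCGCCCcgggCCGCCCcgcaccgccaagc
The Inmt window held 2 TATA boxes, with first bases at -80 and -69, and 1 E-box at -14. Among 32851 RefSeq promoter windows of the same length, 13.6% held a TATA box and 16.3% this E-box. The Gpc3 window held 4 GC boxes, at -63, -29, -19 and, after the start site, at 6, against a GC box in 35.7% of all windows. The Tcf21 and Itga8 windows held none of these letters. Their GC content was 53.3% and 59.0%, that of Inmt 47.7% and that of Gpc3 70.7%, beside a median of 52.7% over all windows. A match is a description of the sequence and not a measured binding site.

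Library totals ran from 2539628 to 9008592 counts. Reads on the 1455 receptor genes of smell and pheromone sensing were used as a rough gauge of background. They took 297 to 1195 CPM (counts scaled to a common library size) in PNX day 7 libraries and 89.9 to 635 in sham day 7. At day 14 they took 124 to 442 CPM in PNX libraries and 90.8 to 1606 in sham libraries. This olfactory share was highest in PNX day 7 replicate 2 and in replicate 2 of sham day 7 and replicate 1 of sham day 14, and results that turn on them are given without them too. Y-linked reads were absent from 4 of the 11 libraries: sham day 7 replicate 3, PNX day 14 replicates 2 and 3, and sham day 14 replicate 1. Transcripts of gated-out cells were present: surfactant and other epithelial genes summed to 958 to 2573 CPM in PNX day 7 libraries and 214 to 13410 in sham day 7, and to 7953 to 17950 CPM in PNX day 14 and 3144 to 13539 in sham day 14. None of the 10 epithelial genes was at 0 in all libraries of a group. Erythroid genes varied most widely at day 14, with 254 to 79877 CPM in PNX day 14 libraries and 3033 to 23509 CPM in sham day 14 libraries. Of 13 genes in a separate list of alveolar fibroblast genes, 12 were in the table (Vegfd appears under its older symbol Figf), and all 12 were above 0 in every library.

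Expression per exon length put the members in a stable order at both ends. Over all 11 libraries, Inmt averaged 1518 CPM per kb of exon, Gpc3 331, Npnt 110, Ces1d 108, Itga8 89.7, Limch1 63.5, Meox2 33.4, Cdh11 30.2 and Tcf21 7.91. Inmt, which methylates tryptamine and other indoles, was the highest, Gpc3 the second and Tcf21 the lowest in the mean of each of the 4 groups. Between these, neighbours in the order lay within each other's range: Npnt, Ces1d and Itga8 overlapped, as did Meox2 and Cdh11. Itga8 was the member that moved most in rank, the sixth in PNX day 7 libraries at 47.0 ± 11.8 CPM per kb and the third in sham day 7 libraries at 141 ± 51.7 (SD, n = 3 each). Exon lengths are from GENCODE M21, which may differ from the annotation behind the counts.

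**Figure D1:**
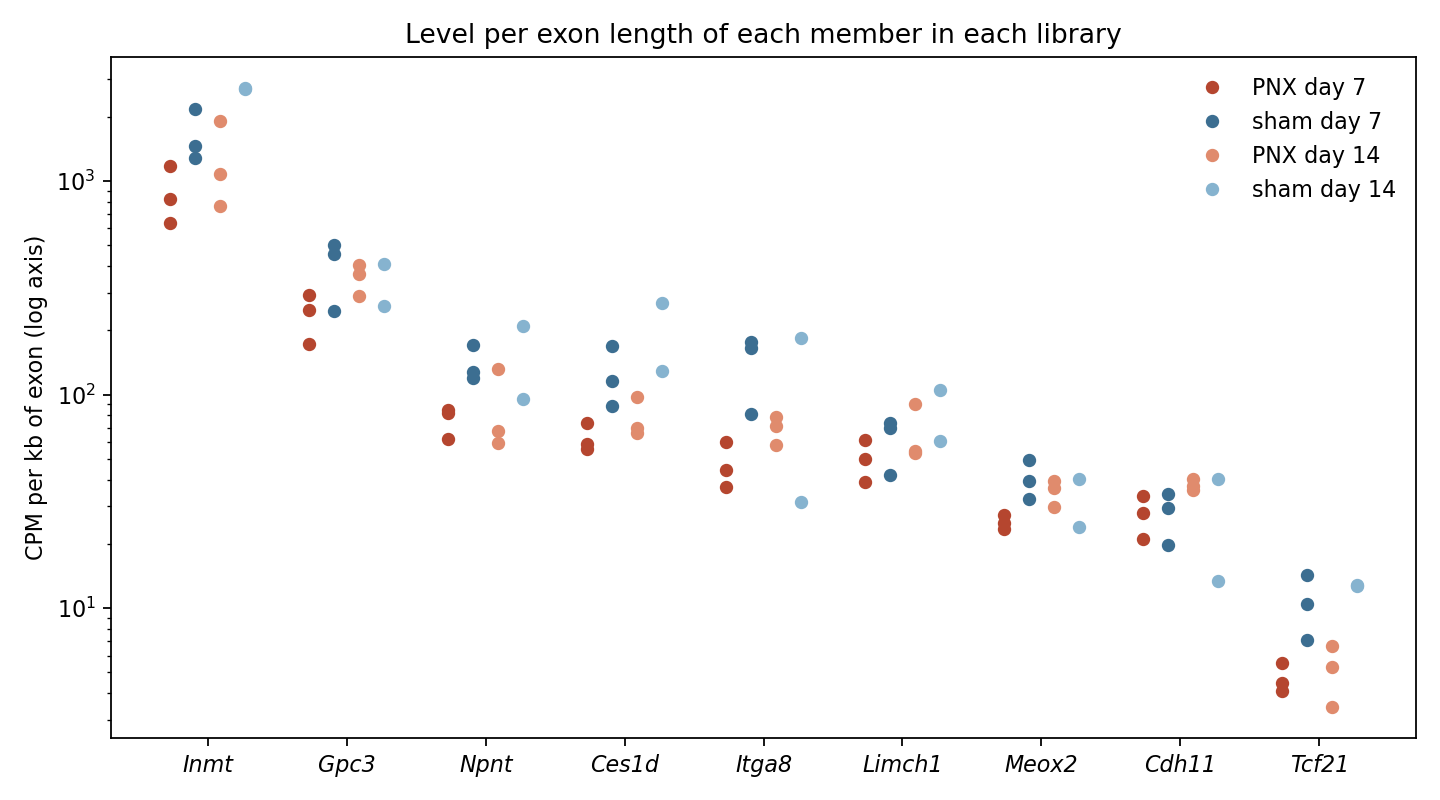
Level of each member in each library, in CPM per kb of exon on a log axis. Each point is a library, the groups are set side by side within a gene, and genes run from the highest mean (Inmt, 1518) to the lowest (Tcf21, 7.91).

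The first comparison asked how these genes stood 7 days after PNX. The members were chosen with earlier results of these data known, so shares over all genes are given as a description. All 9 members had a log2 fold change below 0 against sham, beside 48.3% of all genes tested, and their median was -0.87 beside 0.03 over all genes. No member passed the threshold of adjusted p 0.05 in edgeR's quasi-likelihood test (0% of all genes were called lower and 0.0375% higher), and 6 of 9 were lower at an unadjusted p under 0.05 (8.07% of all genes). In 6 of 9, every PNX library lay below every sham library (9.57% of all genes). The sum of the 9 members was 3201 to 4325 CPM in PNX libraries and 5757 to 8047 CPM in sham libraries. Without the 3 libraries of highest olfactory share all 9 were again below 0, with a median of -0.80. All 8 listed endothelial genes had a log2 fold change above 0 at day 7, with a median of 1.08, and none was called. Their sum was 83.9 to 972 CPM in PNX day 7 libraries and 117 to 549 CPM in sham day 7 libraries, which overlap, and none was at 0 in all libraries of a group. Of 5 erythroid genes, 4 were above 0, with sums of 3742 to 24169 CPM in PNX day 7 libraries and 5008 to 17819 CPM in sham day 7 libraries. The part of either list in the members' values was not tested. In bulk RNA, fewer cells of a type and less RNA per cell cannot be told apart.

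Of the transcription factors, Tcf21 had 10.5, 13.01 and 9.64 CPM in PNX day 7 libraries, against 16.7, 33.7 and 24.6 CPM in sham day 7 libraries. The groups did not overlap, and the PNX libraries lay close together while the sham libraries spread widely. Tcf21 was 2.27-fold lower (log2 fold change -1.18 ± 0.36 SE, adjusted p = 0.159, edgeR), and its adjusted p was 0.0330 in limma voom with sample weights. That was the 1 of 20 alternatives under which Tcf21 passed at day 7, and adjusted p ran up to 0.567 in the others (edgeR). Meox2, a homeobox factor of mesodermal cells, had 59.0, 55.4 and 64.4 CPM in PNX libraries, against 117, 76.9 and 92.9 CPM in sham libraries. Here too each PNX library was below each sham library, by a smaller margin (-0.68 ± 0.31, adjusted p = 0.367, edgeR).

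The adhesion and matrix members did not behave as a block at day 7. Itga8 had 327, 271 and 442 CPM in PNX libraries, against 1213, 599 and 1297 CPM in sham libraries. The PNX values were all below the lowest sham library, and at -1.58 ± 0.50, or 2.99-fold lower, Itga8 had the lowest log2 fold change of the 9 (adjusted p = 0.173, edgeR). Its adjusted p was 0.0299 in DESeq2 (2.72% of genes called lower), 0.0123 in limma voom with sample weights (4.12% called lower) and 0.0338 in edgeR without the 3 libraries of highest olfactory share, where the log2 fold change was -1.72 ± 0.30. With replicates 1 and 2 of sham day 14 left out in turn, the log2 fold change was -1.59 and -1.63. Those libraries are not part of the day 7 contrast but share its filter, scaling and spread. Itga8 passed under 5 of 20 alternatives at day 7 and missed under the others, with adjusted p up to 0.709 (edgeR). Its ligand gene Npnt had 412, 427 and 311 CPM in PNX libraries, against 597, 861 and 639.6 CPM in sham libraries. Those groups did not overlap either (-0.87 ± 0.39, adjusted p = 0.368, edgeR).

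Gpc3, a cell surface heparan sulfate proteoglycan, had 668, 464 and 785 CPM in PNX day 7 libraries, against 1221, 664 and 1348 CPM in sham day 7 libraries. The groups overlapped because sham replicate 2 was as low as PNX replicate 1 (-0.75 ± 0.37, adjusted p = 0.416, edgeR). Cdh11, a cadherin of mesenchymal cells, had 249.2, 189 and 297 CPM in PNX libraries, against 305, 175 and 261 CPM in sham libraries. These ranges were nearly the same (-0.01 ± 0.38, adjusted p = 0.991, edgeR), and the sign turned to 0.18 with scaling by total counts, which moved the median of all genes by 0.18 at day 7.

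Of the enzymes, Inmt had 1315, 1021 and 1878 CPM in PNX day 7 libraries, against 3464, 2319.7 and 2037 CPM in sham day 7 libraries. Ces1d, a carboxylesterase, had 174, 131 and 139.5 CPM in PNX libraries, against 399.9, 273 and 208 CPM in sham libraries. In both genes the groups did not overlap, with -0.89 ± 0.41 for Inmt (adjusted p = 0.370) and -0.99 ± 0.36 for Ces1d (adjusted p = 0.241, both edgeR). Limch1, known in human cells as an activator of non-muscle myosin, had 515, 631 and 399 CPM in PNX libraries, against 713, 754 and 429.9 CPM in sham libraries. Its groups overlapped across most of their range (-0.30 ± 0.37, adjusted p = 0.798, edgeR).

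**Figure D2:**
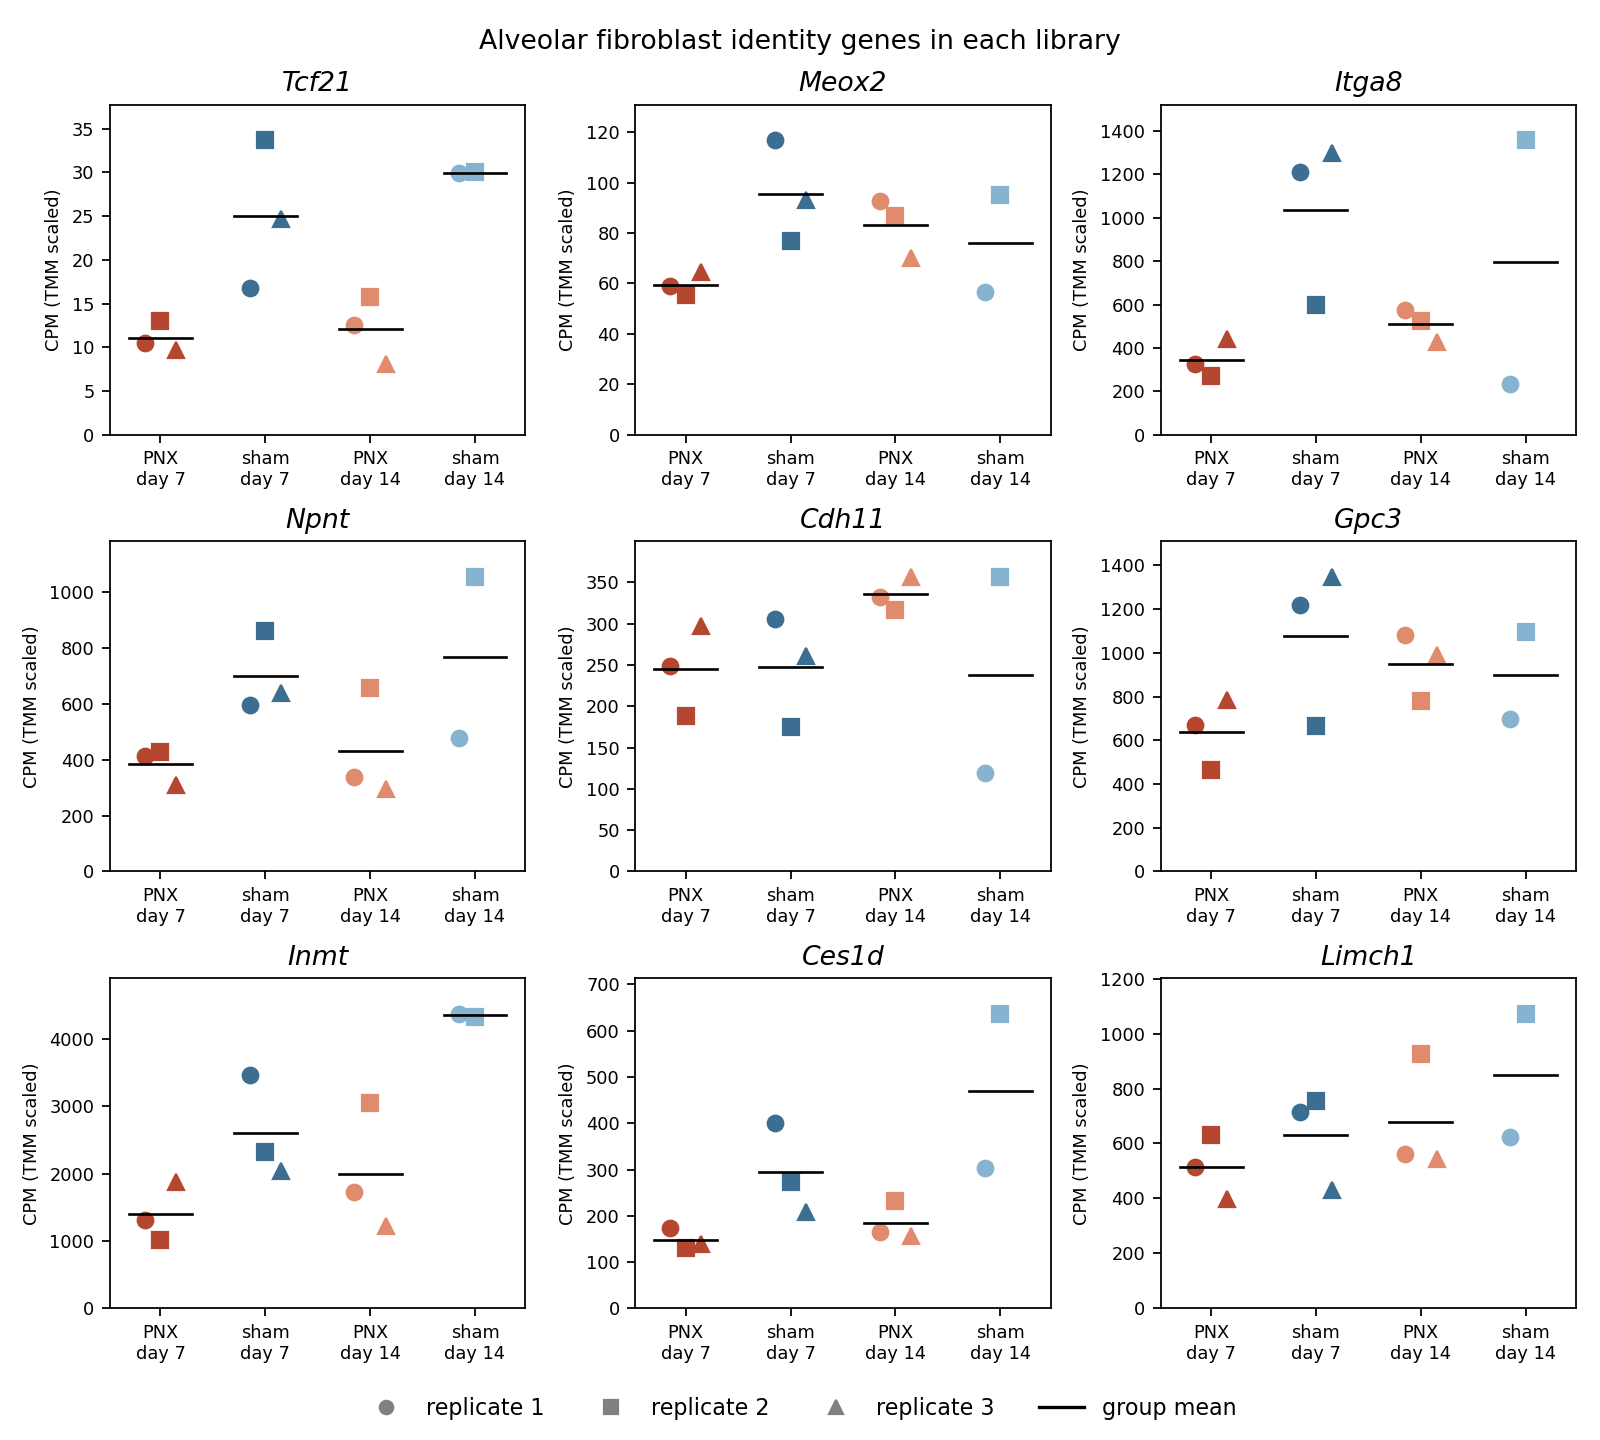
CPM scaled by TMM factors for each of the 9 members, with PNX left of sham at each day; each symbol is a library, its shape gives the replicate number and the line is the group mean. At day 7 the PNX points of Tcf21, Meox2, Itga8, Npnt, Inmt and Ces1d all lie below the sham points, and at day 14 the sham points of Itga8 and Cdh11 lie far apart.

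At day 14 the members divided. Tcf21, Ces1d and Inmt stood below sham in every library, 3 of 9 members beside 8.28% of all genes, and the same 3 were lower at an unadjusted p under 0.05 (3.63% of all genes). The other 6 overlapped between groups. In all, 6 of 9 had a log2 fold change below 0 (54.8% of all genes), with a median of -0.64 beside -0.07 over all genes. No member passed the threshold in edgeR (0% of all genes called lower, 0.00625% higher), in DESeq2 (0.28% called lower) or in limma voom (0% called lower).

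Tcf21 had 12.5, 15.7 and 8.09 CPM in PNX day 14 libraries, against 29.9 and 30.0 CPM in sham day 14 libraries. The sham libraries were alike and stood well above the highest PNX library (-1.30 ± 0.39, adjusted p = 0.404, edgeR). Ces1d had 165, 231 and 157 CPM in PNX libraries, against 304 and 637 CPM in sham libraries (-1.35 ± 0.40, adjusted p = 0.385, edgeR). Its value was -1.80 without sham replicate 1 and -0.57 without sham replicate 2. Inmt had 1719, 3048 and 1223 CPM in PNX libraries, against 4375 and 4325 CPM in sham libraries. The sham libraries agreed closely for Inmt while PNX replicate 2 stood above the other PNX libraries (-1.12 ± 0.45, adjusted p = 0.642, edgeR).

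For Itga8 the day 14 comparison rested on which sham library was read. It had 576, 526 and 426 CPM in PNX day 14 libraries, against 231 and 1359 CPM in sham day 14 libraries, so that 1 sham library lay below and the other above all PNX libraries. The log2 fold change was -0.64 ± 0.54 (adjusted p = 0.831, edgeR) with both sham libraries, -1.43 ± 0.45 without sham replicate 1 and 1.28 ± 0.52 without sham replicate 2. Npnt had 338, 659 and 297 CPM in PNX libraries, against 479 and 1056 CPM in sham libraries. Its value was -0.83 ± 0.43 (adjusted p = 0.747, edgeR), -1.30 without sham replicate 1 and 0.0021 without sham replicate 2.

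Cdh11 had 332, 317 and 357 CPM in PNX day 14 libraries, against 119.6 and 357 CPM in sham day 14 libraries. The PNX libraries lay near the higher sham library (0.49 ± 0.43, adjusted p = 0.837, edgeR). Gpc3 had 1082, 780.1 and 989 CPM in PNX libraries, against 697 and 1097 CPM in sham libraries. Meox2 had 92.5, 86.6 and 70.1 CPM in PNX libraries, against 56.8 and 95.1 CPM in sham libraries. In both, the PNX values lay between the sham libraries (0.08 ± 0.41, adjusted p = 0.971, for Gpc3 and 0.13 ± 0.34, adjusted p = 0.950, for Meox2, edgeR), and both signs turned with scaling by total counts, to -0.060 for Gpc3 and -0.026 for Meox2. Limch1, with 561, 925 and 545 CPM in PNX libraries, against 625 and 1073 CPM in sham libraries, had a log2 fold change of -0.33 ± 0.41 (adjusted p = 0.886, edgeR).

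Sham day 14 replicate 1 was the library with fewest counts, 2539628, and the largest olfactory and vomeronasal share, 1606 CPM. It had 0 Y-linked reads, against 3903 in sham replicate 2. Its epithelial genes summed to 13539 CPM, against 3144 CPM in sham replicate 2. The part of these differences in the members' values was not tested. With sham replicate 1 left out, all 9 members were below 0 at day 14, with a median of -1.12. With sham replicate 2 left out, 3 of 9 were, with a median of 0.27. Tcf21, Inmt and Ces1d were the 3 members below 0 either way. Within sham replicate 1 the members did not move together: the read count of Inmt was 18.9 times that of Itga8, against 3.18 times in sham replicate 2. Leukocyte genes also differed at day 14: all 13 listed genes in the table had a log2 fold change below 0 (54.8% of all genes), and in 10 of 13 every PNX library lay below every sham library (8.28% of all genes). Their median log2 fold change was -2.70, and 10 of 13 were lower at an unadjusted p under 0.05 (3.63% of all genes, edgeR). Their sum was 1532 to 2009 CPM in PNX libraries and 2101 to 2352 CPM in sham libraries, and none was at 0 in all libraries of a group. None was called at day 14. In the mean of both days 1 was called lower (0.0562% of all genes), Laptm5 at -2.08 (adjusted p = 0.0433, edgeR), and it passed under 6 of 19 alternatives. The part of leukocyte genes in the members' values was not tested.

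**Figure D3:**
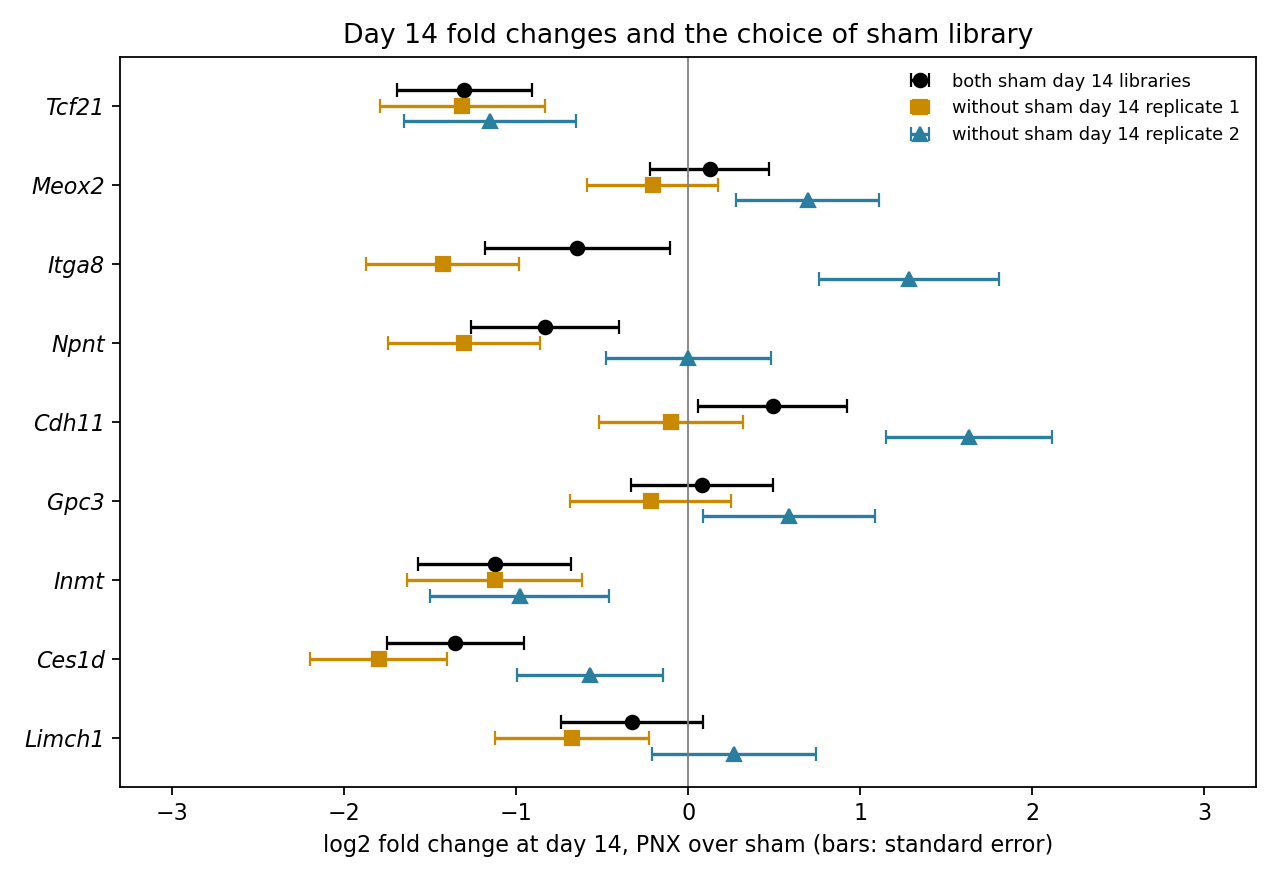
Log2 fold change of each member at day 14, PNX over sham, with bars for the standard error: with both sham libraries, without sham replicate 1 and without sham replicate 2. Tcf21, Inmt and Ces1d stay left of 0 in all 3 fits, while Itga8 moves between -1.43 and 1.28.

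Averaged over both days, 8 of 9 members lay below 0 (53.4% of all genes), and Tcf21 and Ces1d came closest to the threshold. Tcf21 stood at -1.24 ± 0.27 (2.36-fold lower, adjusted p = 0.0654) and Ces1d at -1.17 ± 0.27 (2.25-fold lower, adjusted p = 0.0775), ahead of Itga8 at -1.11 ± 0.36 (adjusted p = 0.247), Inmt at -1.01 ± 0.30 (adjusted p = 0.191) and Npnt at -0.85 ± 0.29 (adjusted p = 0.276, all edgeR). These 5 were lower at an unadjusted p under 0.05 (6.37% of all genes), and none was called by edgeR (0.0562% of all genes called lower). Gpc3, Limch1 and Meox2 lay at -0.34, -0.31 and -0.28, and Cdh11 at 0.24. DESeq2 called Tcf21 (adjusted p = 0.00406), Ces1d (0.00161) and Inmt (0.0188), beside 1.16% of genes called lower, while limma voom called no member (0.0125% called lower). Of 19 alternatives for the mean of both days, Ces1d passed under 4, Tcf21 under 3, Itga8 under 2 and Inmt under 1. Leaving out sham day 7 replicate 1 gave Tcf21 an adjusted p of 0.0192 in edgeR, and leaving out sham day 14 replicate 1 gave Itga8 0.0132 and Ces1d 0.0124. Leaving out sham day 14 replicate 2 moved the median of the 9 members to -0.17, against -0.85 with all libraries. Without that library Itga8 stood at -0.17 (adjusted p = 0.835), Npnt at -0.46 (0.523), Ces1d at -0.80 (0.212), Inmt at -0.95 (0.231) and Tcf21 at -1.19 (0.130, all edgeR).

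**Figure D4:**
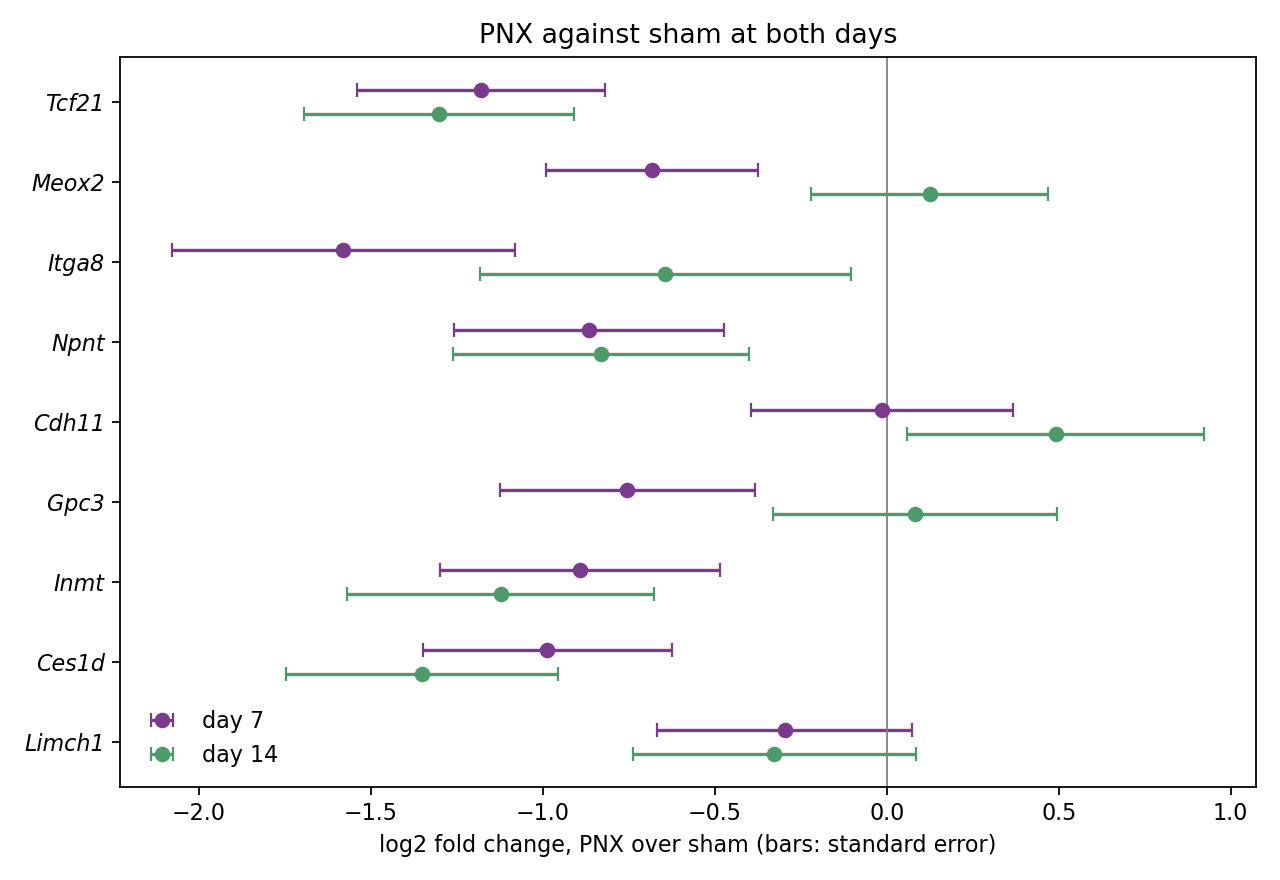
Log2 fold change of each member, PNX over sham, at day 7 and at day 14, with bars for the standard error. Tcf21, Npnt, Inmt, Ces1d and Limch1 have similar values at both days, whereas Meox2, Itga8, Gpc3 and Cdh11 lie further right at day 14.

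The design also allows the effect of PNX to be compared between days and each surgery to be followed over time. The difference of the PNX effect, day 14 minus day 7, was 0.94 ± 0.74 for Itga8, 0.84 ± 0.56 for Gpc3, 0.81 ± 0.46 for Meox2 and 0.50 ± 0.58 for Cdh11, with adjusted p of 0.690, 0.646, 0.612 and 0.775 (edgeR). The other 5 lay between -0.37 and 0.03. No member passed, none had an unadjusted p under 0.05, and edgeR called no gene (0%). Without sham day 14 replicate 2 the Itga8 difference was 2.91, and without sham day 14 replicate 1 it was 0.16. Each of these fits leaves a lone sham day 14 library.

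Between PNX day 14 and PNX day 7, all 9 members had a log2 fold change above 0, beside 45.9% of all genes, with a median of 0.45 beside -0.06 over all genes. None passed in edgeR (0% of all genes called higher), in DESeq2 (58 genes called in both directions) or in limma voom (174 genes called in both directions). No member had an unadjusted p under 0.05 in edgeR. Meox2, at 83.1 ± 11.6 CPM on day 14 and 59.6 ± 4.53 CPM on day 7 (SD, n = 3 each), and Cdh11, at 335 ± 20.1 CPM on day 14 and 245 ± 54.2 CPM on day 7, were the 2 members whose groups did not overlap (9.02% of all genes). With scaling by total counts, 2 of the 9, Tcf21 and Npnt, were below 0, and the median of all genes shifted by -0.29. Between sham day 14 and sham day 7, 5 members were above 0 (52.5% of all genes), none was called higher (0.0187% of all genes), and Inmt alone of the 9 did not overlap (12.5% of all genes), with 4349.8 ± 35.0 CPM on day 14 (SD, n = 2) and 2607 ± 756 CPM on day 7 (SD, n = 3). Without sham day 14 replicate 2, Itga8 between the sham days stood at -2.34, and without sham day 14 replicate 1 at 0.40 (edgeR). Each of these fits leaves a lone sham day 14 library.

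Ratios of read counts within a library do not depend on scaling between libraries. The pairs below were chosen after their values were seen and are given without a test. Reads on Cdh11 per read on Itga8 were 0.762, 0.696 and 0.671 in PNX day 7 libraries, against 0.252, 0.292 and 0.201 in sham day 7 libraries. Reads on Gpc3 per read on Itga8 were 2.04, 1.71 and 1.78 in PNX day 7 libraries, against 1.01, 1.11 and 1.04 in sham day 7 libraries. Both ratios were tight within a surgery and apart between surgeries, although the levels of all 3 genes varied among sham libraries. At day 14 Cdh11 to Itga8 was 0.576, 0.603 and 0.837 in PNX libraries, against 0.517 and 0.262 in sham libraries, and Gpc3 to Itga8 was 1.88, 1.48 and 2.32 in PNX libraries, against 3.01 and 0.807 in sham libraries. The ratio of the ligand gene Npnt to Itga8 was 1.26, 1.58 and 0.705 in PNX day 7 libraries, against 0.493, 1.44 and 0.493 in sham day 7 libraries, which overlap. Epithelial genes summed to 2573, 2129 and 958 CPM in the same PNX libraries and to 1726, 13410 and 214 CPM in the same sham libraries. At day 14 the ratio was 0.586, 1.25 and 0.697 in PNX libraries, with epithelial sums of 15875, 17950 and 7953 CPM. In sham day 14 libraries it was 2.07 and 0.777, with 13539 and 3144 CPM. The part of epithelial RNA in the Npnt values was not tested.

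**Figure D5:**
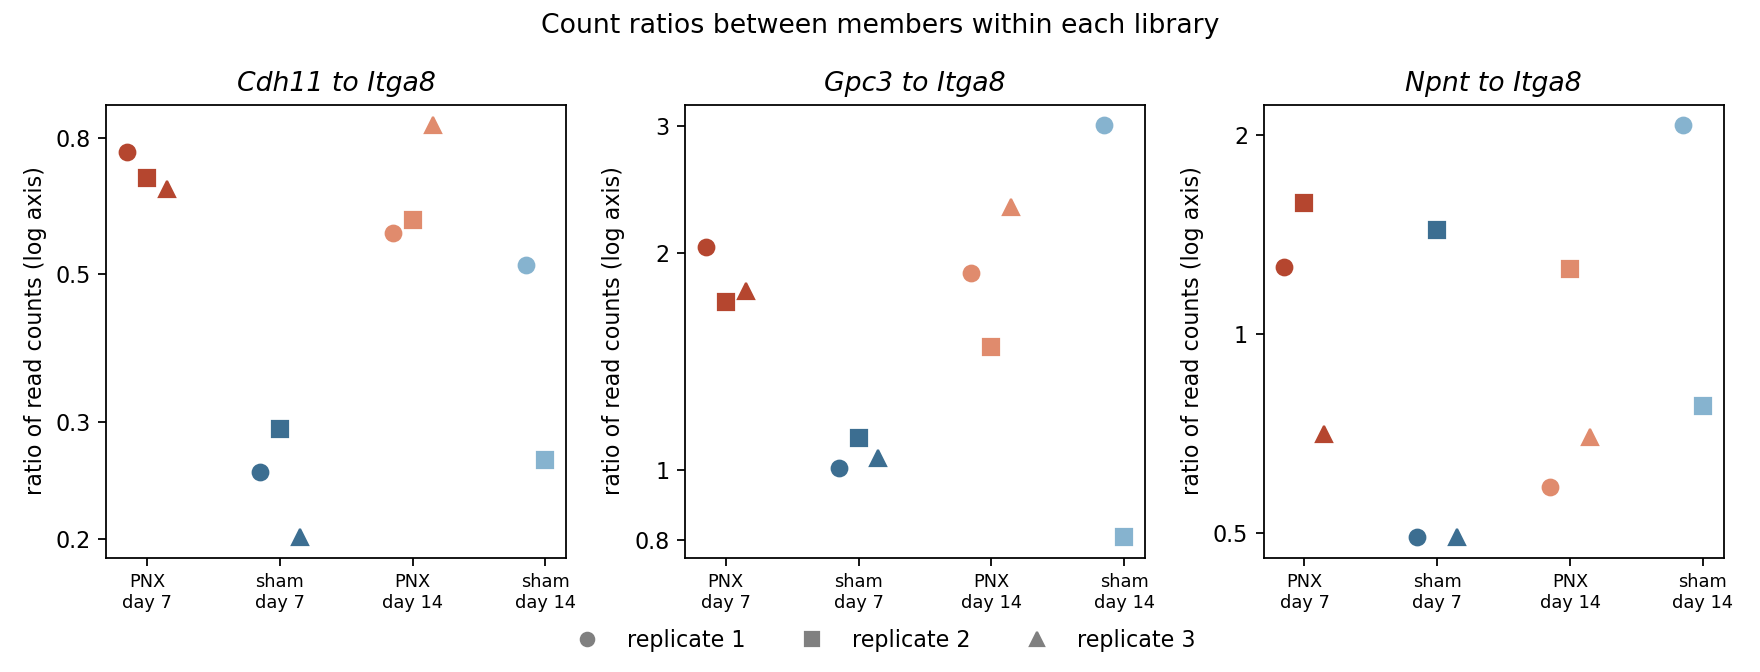
Ratio of read counts between members within each library, on log axes, for Cdh11, Gpc3 and Npnt over Itga8, with PNX left of sham at each day. At day 7 the first 2 ratios are higher in each of the 3 PNX libraries than in each sham library, and the third overlaps.

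Other genes of alveolar fibroblasts, from a list of 12 in the table, lay on the same side. That list was chosen with earlier results of these data known, so its counts are a description and no independent support for the members. At day 7, 11 of 12 were below 0 (48.3% of all genes), with a median of -0.88, 5 were lower at an unadjusted p under 0.05 (8.07% of all genes) and 7 did not overlap (9.57%), and none was called. At day 14, 10 of 12 were below 0 (54.8% of all genes), with a median of -0.77, 4 were lower at an unadjusted p under 0.05 (3.63%) and 5 did not overlap (8.28%), and none was called. In the mean of both days 2 of 12 fell (0.0562% of all genes): Slc7a10, a neutral amino acid transporter, by 1.83 ± 0.26 on the log2 scale (adjusted p = 0.00546) and Fgfr4, a fibroblast growth factor receptor, by 1.92 ± 0.33 (adjusted p = 0.0137, both edgeR). Slc7a10 averaged 11.01 ± 3.28 CPM in PNX day 7 libraries and 36.1 ± 10.8 in sham day 7 libraries (SD, n = 3 each), and 9.43 ± 1.40 in PNX day 14 libraries (n = 3) and 36.6 ± 6.09 in sham day 14 libraries (n = 2). Fgfr4 averaged 7.99 ± 0.929 CPM in PNX day 7 libraries and 22.4 ± 10.7 in sham day 7 libraries, and 4.47 ± 0.909 in PNX day 14 libraries and 22.9 ± 12.9 in sham day 14 libraries. Slc7a10 passed under each of 19 alternative settings and Fgfr4 under 14 of 19; Fgfr4 missed in limma voom (adjusted p = 0.1002), with the replicate block (0.0518), without PNX day 14 replicate 2 (0.0745), without replicate 3 of the same group (0.0728) and without sham day 14 replicate 2 (0.101). Scube2, a secreted hedgehog carrier, was next at -1.31 ± 0.28 (adjusted p = 0.0614, edgeR).

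Itga8 pairs with the beta1 chain encoded by Itgb1 and binds fibronectin, vitronectin, tenascin C and osteopontin besides nephronectin. Spp1, which codes for osteopontin, rose at day 7, averaging 409 ± 411 CPM in PNX libraries and 12.2 ± 5.40 CPM in sham libraries (SD, n = 3 each; log2 fold change 5.06 ± 0.70, adjusted p = 0.0216, edgeR). Its PNX day 7 libraries ran from 129.8 to 881 CPM and its sham libraries from 6.38 to 17.0, the highest being PNX replicate 2. The log2 fold change was 3.79 without that library (adjusted p = 0.00168) and 3.86 without the 3 libraries of highest olfactory share (adjusted p = 0.0156, both edgeR). Spp1 missed the threshold with total counts (adjusted p = 0.0527), with the day 7 groups alone (0.101) and when replicate 2 of sham day 7 was removed (0.0549), and passed under the other 17 of 20 alternatives. At day 14 Spp1 averaged 245 ± 73.6 CPM in PNX libraries and 55.3 ± 24.97 CPM in sham libraries (2.14 ± 0.72, adjusted p = 0.532, edgeR). Tnc, for tenascin C, was at 2.61 ± 0.52 at day 7 (adjusted p = 0.0672) and Fn1, for fibronectin, at 0.63 ± 0.36 (adjusted p = 0.509, both edgeR). Itgb1, the partner chain, averaged 557 ± 55.3 CPM in PNX day 7 libraries and 569 ± 137 CPM in sham day 7 libraries (-0.03 ± 0.35, adjusted p = 0.980, edgeR).

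Reads can be shared between close relatives in a gene family. Of 23 listed relatives, 22 were in the table and 17 passed the filter on low counts, and none was called at either day by edgeR; at an unadjusted p under 0.05, 2 were higher at day 7 (4.66% of all genes) and 2 at day 14 (3.19% of all genes). At day 7 Nnmt, a methyltransferase related to Inmt, averaged 202 ± 80.7 CPM in PNX libraries and 93.9 ± 25.01 CPM in sham libraries (1.11 ± 0.35, adjusted p = 0.172, edgeR). The close copies Ces1a, Ces1b, Ces1c and Ces1e did not pass the filter, and each averaged at most 1.59 CPM in a group, against a lowest group mean of 148 CPM for Ces1d. How reads that match several copies were counted is not given in the sources used here, and the Ces1d values are uncertain to that extent.

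Across the 11 libraries the members differed in how closely they followed each other. Pearson's r of a member's log2 CPM with the mean of the others was 0.84 for Ces1d, 0.81 for Itga8, 0.79 for Meox2, 0.74 for Npnt and 0.69 for Inmt, and lower for Gpc3 (0.56), Limch1 (0.54), Tcf21 (0.52) and Cdh11 (0.19). These are descriptions over libraries that share a surgery, a day and a depth. Among 9615 other genes, those most like the mean of the members were Mamdc2 (r = 0.94), Scn3a (0.93), Mettl7a1 (0.93), Bmp4 (0.93) and Atf6 (0.93). Because these genes were picked for that likeness, their differences between groups follow in part from the choice. Mamdc2 averaged 178 ± 26.1 CPM in PNX day 7 libraries and 357 ± 83.6 CPM in sham day 7 libraries (SD, n = 3 each). At day 14 it averaged 283 ± 49.3 CPM in PNX libraries (n = 3) and 308 ± 180 CPM in sham libraries (n = 2), which overlap. Bmp4, a bone morphogenetic protein, averaged 78.6 ± 13.1 CPM in PNX day 7 libraries and 132 ± 39.8 CPM in sham day 7 libraries (SD, n = 3 each). At day 14 Bmp4 averaged 115 ± 15.5 CPM in PNX libraries (n = 3) and 149 ± 54.6 CPM in sham libraries (n = 2), which overlap.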

How the data were processed

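RNA of sorted lung mesenchymal cells was made into libraries with a low-input kit, per the labels. The deposited values are read counts per gene, whole numbers that were not scaled, which the authors made on mm10; the submitters' processing notes name bcl2fastq 2.20.0.422. Aligner, counter, annotation and strand setting are not given in the sources used here. Groups were taken from the titles.

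The model was fitted with edgeR 4.0.16 (R 4.3.3). Of 24411 genes, filterByExpr kept 16011. After TMM scaling, 1 mean for each of 4 groups was fitted over the 11 libraries by robust quasi-likelihood and contrasts were tested by F tests, with Benjamini-Hochberg adjustment over all genes tested and a threshold of 0.05. A standard error is the absolute log2 fold change divided by the square root of F. Levels in CPM use TMM scaling; olfactory shares use total counts. A call, or "passed", means adjusted p under 0.05. The fits were also run on simulated counts, which held no differences between libraries in background or cell content. No result here rests on that run.

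Alternatives were DESeq2 1.42.0, limma 3.58.1 voom with sample weights, RLE factors, total counts, no filter, the groups compared alone, a replicate block, 3 libraries left out and each library left out. A covariate for Y-linked counts was added after seeing the data. The members and the 12 other lists were chosen with earlier results of these data known. Named genes are the 9 members, up to 3 genes of smallest p from each other list, and the 5 genes most like the members (mean log2 CPM 3 or more); ratios, Fn1, Itgb1 and the Ces1 copies were named after their values were seen. Same-numbered libraries did not deviate together as a rule, so the numbers were not used as pairs. At day 7, PNX and sham libraries of the same number correlated at -0.12, 0.53 and 0.34 for replicates 1, 2 and 3.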

Additional observations from a re-analysis of the deposited data

How the results depend on the processing

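For single members, 982 values kept their direction and their side of the threshold under the alternatives, 62 turned sign and 18 passed the threshold they otherwise missed; the causes were not tested. Sign turned at day 7 for Cdh11, to 0.18 with total counts and 0.039 with the day 7 groups alone. At day 14 it turned with total counts for Meox2 (-0.026) and Gpc3 (-0.060), and without the 3 libraries of highest olfactory share for Meox2 (-0.17), Gpc3 (-0.18) and Cdh11 (-0.062); in the mean of both days Cdh11 stood at -0.066 without those libraries. The difference between days turned for Npnt under voom (-0.21), total counts (-0.31) and the 3 libraries left out (-0.47), for Tcf21 (0.045) and Limch1 (0.11) without the filter, and for Limch1 with the Y-linked covariate (0.19). Between PNX days, Npnt turned under voom (-0.16) and total counts (-0.17), and Tcf21 under total counts (-0.18). Between sham days, Itga8 (0.065) and Cdh11 (0.28) turned without the 3 libraries.

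The replicate block was used although the numbers were not taken as pairs. Of 15 same-numbered pairs, 3 had a correlation over 0.1, the range being -0.59 to 0.53, and 0 libraries correlated best with their own number. The block called 0 genes at day 14, 20 in the mean, 1 in the difference between days, 1 between PNX days and 1 between sham days, and called no member. With the block Gpc3 at day 14 stood at -0.095, Limch1 in the difference between days at 0.16, and Npnt and Cdh11 between sham days at -0.087 and 0.0092.

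Of the members, DESeq2 called 1 at day 7 and 3 in the mean, voom 2 at day 7 (Tcf21, 0.0330, and Itga8, 0.0123), total counts 1 (Ces1d, adjusted p = 0.0482) and no filter 1 (Tcf21, 0.0452) in the mean, and the 3 libraries left out gave 1 at day 7 and 2 in the mean (Itga8, 0.00437, and Ces1d, 0.0235). All of these member calls were lower. Over all genes, DESeq2 called 325 lower at day 7 and 175 lower in the mean, and voom 660 lower at day 7. In the mean, total counts called 22 genes lower and no filter 58. In both directions, edgeR called 6 genes at day 7, 1 at day 14, 31 in the mean, 0 in the difference between days, 0 between PNX days and 3 between sham days. DESeq2 called 457, 109, 304, 102, 58 and 669 in that order, voom 932, 0, 5, 1, 174 and 1, and no filter 178, 27, 102, 8, 8 and 102. Total counts gave 12, 3, 50 and 1 in the first 4 and 0 between sham days, and RLE factors 2 at day 14. The groups alone gave 52 at day 14, 83 between PNX days and 0 between sham days. The 3 libraries left out gave 22, 23, 98 and 3 in the first 4 and 16 between sham days, and the Y-linked covariate, chosen after seeing the data, 17 at day 7, 0 at day 14, 1 in the difference between days, 3 between PNX days and 5 between sham days.

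With each library left out in turn, genes called ran from 3 to 425 at day 7 (425 without sham day 7 replicate 1), 0 to 74 at day 14, 8 to 192 in the mean, 0 to 370 in the difference between days, 0 to 2 between PNX days and 1 to 958 between sham days (74, 370 and 958 without sham day 14 replicate 2). Members called ran from 0 to 1 at day 7, 0 to 2 in the mean, and 0 to 1 in the difference between days and between sham days. At day 7 Cdh11 ran from -0.25 to 0.17 and in the mean from -0.061 to 0.79, where Itga8 ran from -1.51 to -0.17, Npnt from -1.10 to -0.46 and Ces1d from -1.40 to -0.80. At day 14 Itga8 ran from -1.43 to 1.28, Ces1d from -1.80 to -0.57, Npnt from -1.30 to 0.0021, Limch1 from -0.67 to 0.27, Meox2 from -0.20 to 0.69, Gpc3 from -0.22 to 0.59 and Cdh11 from -0.10 to 1.63. In the difference between days Tcf21 ran from -0.32 to 0.12, Npnt from -0.43 to 0.92, Ces1d from -0.80 to 0.46, Inmt from -0.65 to 0.12, Limch1 from -0.37 to 0.62 and Cdh11 from -0.077 to 1.69. Between PNX days Npnt ran from -0.28 to 0.39 and Tcf21 from -0.10 to 0.37. Between sham days Itga8 ran from -2.34 to 0.40, Npnt from -0.71 to 0.61, Cdh11 from -1.22 to 0.54, Ces1d from -0.12 to 1.13, Gpc3 from -0.80 to 0.034, Limch1 from -0.18 to 0.77 and Meox2 from -0.92 to 0.0017.

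Where leaving out a library leaves a lone sham library at day 14, that library is assumed to vary like the other groups. A member that missed the threshold is not thereby shown to have equal levels.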

Other observations

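Other mesenchymal genes in the same libraries were counted from lists, each beside the members. These lists too were chosen with earlier results of these data known. Of 11 adventitial fibroblast genes, which mark cells around airways and vessels, 9 were below 0 at day 7 (48.3% of all genes). Of these, 5 were so at an unadjusted p under 0.05 (8.07% of all genes, edgeR). Their median at day 7 was -1.10, beside -0.87 for the members. In 5 of 11 every PNX library lay below every sham library (9.57% of all genes), and in 2 every PNX library lay above. At day 14, 4 of 11 were below 0 (54.8% of all genes), with a median of 0.24, and edgeR called none at either day. Pi16, a defining adventitial gene, averaged 936 ± 168 CPM in PNX day 7 libraries and 4621 ± 3419 CPM in sham day 7 libraries (SD, n = 3 each), with a log2 fold change of -2.30 ± 0.61 (adjusted p = 0.121, edgeR). Of 10 smooth muscle and myofibroblast genes, 7 were below 0 at day 7 and 3 at day 14, beside the same shares of all genes, with none called. Myh11, a smooth muscle myosin, was at -0.36 ± 0.39 at day 7 and 1.33 ± 0.46 at day 14 (adjusted p = 0.767 and 0.531, edgeR). Of 8 pericyte genes, 5 were below 0 at day 7 and 4 at day 14, and of 7 mesothelial genes 3 and 0, again beside 48.3% and 54.8% of all genes, with none called at either day.

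Most genes of activated fibroblasts lay on the other side of 0, although their sums overlapped at day 7. The list summed to 8263 to 9646 CPM in PNX day 7 libraries and 3513 to 10580 CPM in sham day 7 libraries. The sums at day 14 were 5807 to 7714 CPM in PNX libraries and 2046 to 4188 CPM in sham libraries. At day 7, 1 of 11 was below 0 (48.3% of all genes) and 4 rose (0.0375% of all genes), among them Cthrc1, a secreted protein of matrix-producing fibroblasts, which averaged 150.0 ± 43.6 CPM in PNX libraries and 8.59 ± 3.01 CPM in sham libraries (SD, n = 3 each; 4.11 ± 0.42, adjusted p = 0.000211, edgeR). Timp1, an inhibitor of matrix metalloproteinases, was called as well (2.42 ± 0.32, adjusted p = 0.00505, edgeR), as were Spp1 and Adam12, a metalloproteinase (3.51 ± 0.55, adjusted p = 0.0216, edgeR). Cthrc1 and Timp1 passed under each of 20 alternatives and Adam12 under 16 of 20; Adam12 missed with 1 library removed, either replicate 3 of PNX day 7 (0.0701), replicate 2 of PNX day 14 (0.0552), or replicate 2 (0.0549) or 3 (0.0827) of sham day 7 (adjusted p, edgeR). At day 14, 1 of 11 was below 0 (54.8% of all genes) and none was called, with Cthrc1 at 117 ± 36.6 CPM in PNX libraries (SD, n = 3) and 20.6 ± 8.91 CPM in sham libraries (SD, n = 2; 2.53 ± 0.46, adjusted p = 0.0666, edgeR).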
